A study of Mus musculus with 9 samples.

Results

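A set of 8 genes of the thick ascending limb of the loop of Henle was followed here in mouse kidney: Slc12a1, Kcnj1, Bsnd, Cldn16, Cldn19, Cldn10, Umod and Egf. They were taken by symbol and are 8 of 52636 genes in the deposited tables. All 8 had enough reads to enter the statistical test, as did 17114 genes in all.

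The data are RNA sequencing of whole-kidney RNA from 9 libraries, 3 of each genotype. The C59A mice carry a knock-in of Nfkb1, which encodes the NF-kB subunit p50 and its precursor, in which cysteine 59 is replaced by alanine, and the C59S mice one in which it is replaced by serine. WT mice carry neither change. Both knock-in alleles were built with a PGK-neo selection cassette in a nearby intron, from C57BL/6NTac-derived embryonic stem cells, and no group carries the cassette alone. The labels tie the alleles to higher and lower NF-kB activity in conflicting orders, so the groups are named here by allele only. They give no sex, age, litter or zygosity, and do not say whether the 3 libraries of a genotype are separate animals, and the p-values below rest on the variation among these libraries alone.

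The thick ascending limb reabsorbs salt without water. Slc12a1 encodes NKCC2, the apical sodium, potassium and chloride cotransporter that loop diuretics block. Kcnj1 encodes ROMK, the channel that returns potassium to the lumen, and Bsnd encodes barttin, a subunit on which the exit of chloride to the blood side depends. The lumen-positive voltage that results draws calcium, magnesium and sodium between the cells, through junctions built from claudins. The same segment secretes uromodulin, the most abundant protein of normal urine, from Umod, and makes the epidermal growth factor precursor from Egf, as does the distal convoluted tubule.

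Library totals ran between 16367403 and 23744707 counts in C59A, 18603933 and 25787659 in C59S and 18428728 and 21144972 in WT, and 3 counts, the least read as present, corresponded to 0.112 to 0.202 counts per 1000000 counts of scaled library total (CPM). Mitochondrial genes took 20.8% to 28.8% of counts in C59A, 20.5% to 40.6% in C59S and 16.4% to 19.6% in WT. Reads of 4 Y-linked genes summed to 167 to 174 CPM in the C59A libraries, against 0 to 2.56 CPM in C59S and 0 to 0.238 CPM in WT, and Xist to at most 0.724 CPM in C59A against at least 884 CPM in C59S and 815 CPM in WT. In every comparison with C59A, the allele and the presence of Y-linked reads therefore cannot be told apart. Nfkb1 itself ran between 29.2 and 39.7 CPM in C59A, 36.9 and 39.6 CPM in C59S and 32.2 and 36.8 CPM in WT, and counts per gene do not check a single changed codon.

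The promoters of Slc12a1 and Cldn19 are shown because these genes varied together between libraries, that of Umod because its level varied between libraries but in another order, and that of Cldn10 because it is the 1 member whose libraries lay higher in C59A than in WT without overlap. Cldn10 has another RefSeq start, whose window begins at chr14:118854700 and is not shown. Which form of Cldn10 either start serves was not determined. The letters come from RefSeq (GRCm38.p6), 5′ to 3′ on the gene's strand, within the 250 bases before a RefSeq start and ending where an annotated exon begins. Capitals mark matches, on either strand, to the NF-kB motif, which Cldn19 alone of these 4 stretches holds.
Slc12a1, chr2:125152350-125152504, plus strand: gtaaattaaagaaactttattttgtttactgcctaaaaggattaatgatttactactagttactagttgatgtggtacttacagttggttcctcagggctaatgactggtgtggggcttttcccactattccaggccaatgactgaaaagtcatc
Cldn19, chr4:119255191-119255413, plus strand: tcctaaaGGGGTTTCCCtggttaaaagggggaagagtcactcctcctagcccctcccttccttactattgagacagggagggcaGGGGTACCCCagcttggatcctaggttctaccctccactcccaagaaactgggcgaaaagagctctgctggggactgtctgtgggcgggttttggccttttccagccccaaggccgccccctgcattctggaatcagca
Umod, chr7:119479283-119479512, minus strand: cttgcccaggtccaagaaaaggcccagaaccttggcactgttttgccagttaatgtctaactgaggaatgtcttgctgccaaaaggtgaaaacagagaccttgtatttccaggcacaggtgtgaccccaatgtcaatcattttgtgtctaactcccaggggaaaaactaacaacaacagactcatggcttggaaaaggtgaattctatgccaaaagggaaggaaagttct
Cldn10, chr14:118787621-118787870, plus strand: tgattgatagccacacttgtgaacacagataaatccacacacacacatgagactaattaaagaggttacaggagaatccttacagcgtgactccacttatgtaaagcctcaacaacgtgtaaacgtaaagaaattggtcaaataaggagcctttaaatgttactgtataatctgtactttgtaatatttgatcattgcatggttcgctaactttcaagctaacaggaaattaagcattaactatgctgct

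RefSeq windows of 250 bases were at hand for 7 of the 8 genes, 10 windows in all, and Bsnd had no entry. The NF-kB motif lay in 2 of the 10 windows, against 7.25% of 32817 windows of all genes; both belong to Cldn19 and overlap each other, with matches 243 and 166 bases before the earlier start. No member window held the E-box CACGTG, which 6.02% of all windows hold, or the estrogen-related receptor motif AAGGTCA, which 4.08% hold. A match describes letters, not a bound site. Slc12a1 and Cldn19, whose levels moved together, shared none of the searched motifs.

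Per length, the 8 genes spanned a wide range of levels. Mean deposited FPKM over the 9 libraries was 210.0 for Umod, 123 for Slc12a1, 66.0 for Egf, 44.0 for Cldn10, 38.1 for Kcnj1, 17.9 for Bsnd, 7.45 for Cldn19 and 5.86 for Cldn16. Umod lay above Slc12a1 in 8 of 9 libraries, the exception being WT replicate 1, with 139 FPKM of Umod and 146 FPKM of Slc12a1. Over all libraries the ranges of neighbours in this order overlapped, apart from Kcnj1 and Bsnd, the lowest Kcnj1 value being 30.6 FPKM and the highest Bsnd value 23.0 FPKM. In WT alone, where Kcnj1 averaged above Cldn10, the ranges of Slc12a1 and Egf, Egf and Kcnj1, Cldn10 and Bsnd, and Bsnd and Cldn19 did not overlap, and those of the other neighbours did. All 8 genes were present, each with at least 101 reads in every library. In whole-kidney RNA, reads of these genes from other segments are counted with those of the limb.

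None of the 8 genes passed the test in any comparison. Under edgeR's quasi-likelihood test, called at a Benjamini-Hochberg adjusted p under 0.05 over all genes tested, 0 of 8 were called in C59A against WT, where 5.70% of all genes were. In C59S against WT 0 of 8 were called, against 0% of all genes; with the replicate number as a block on these groups alone it was 0 of 8 against 3.82%. The count was also 0 of 8 in C59A against C59S, where 5.91% of all genes were called. The test over all 3 genotypes at once also called 0 of 8, against 6.72%. At an unadjusted p under 0.05 the counts were 3 of 8 in C59A against WT, where 21.0% of all genes reached it, 0 of 8 in C59S against WT, where 18.1% did, and 3 of 8 in C59A against C59S, where 22.9% did. These 3 were Egf, Cldn10 and Bsnd in both comparisons, which share the C59A libraries. DESeq2 and limma voom with quality weights each called 1 of 8 in C59A against WT, where they called 4.96% and 5.99% of all genes, and 1 of 8 in C59A against C59S, where they called 5.53% and 10.3%. That gene was Egf. Against WT they called 0 of 8 in C59S, where DESeq2 called 2.03% of all genes and limma voom 0%. Shares for DESeq2 are over the 31298 genes with any read, those without an adjusted p counted as not called. Those for limma voom are over 17114, so the 2 kinds of share are not alike.

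The libraries of 2 genotypes did not overlap for 2 of 8 genes in C59A against WT, where 24.6% of all genes had no overlap, for 0 of 8 in C59S against WT, against 22.5%, and for 3 of 8 in C59A against C59S, against 29.2%. The median log2 fold change of the 8 was 0.01 in C59A against WT, 0.05 in C59S against WT and -0.11 in C59A against C59S, against -0.02, 0.01 and -0.01 over all genes tested. The sum of the 8 genes was 1768, 3251 and 1802 CPM in C59A, 3391, 2144 and 2056 CPM in C59S and 2257, 2686 and 2189 CPM in WT. 1 C59A library and 1 C59S library lay above every WT library and the rest below, so the sums overlapped. In whole-kidney RNA, fewer cells of this segment and less RNA per cell cannot be told apart.

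**Figure D1:**
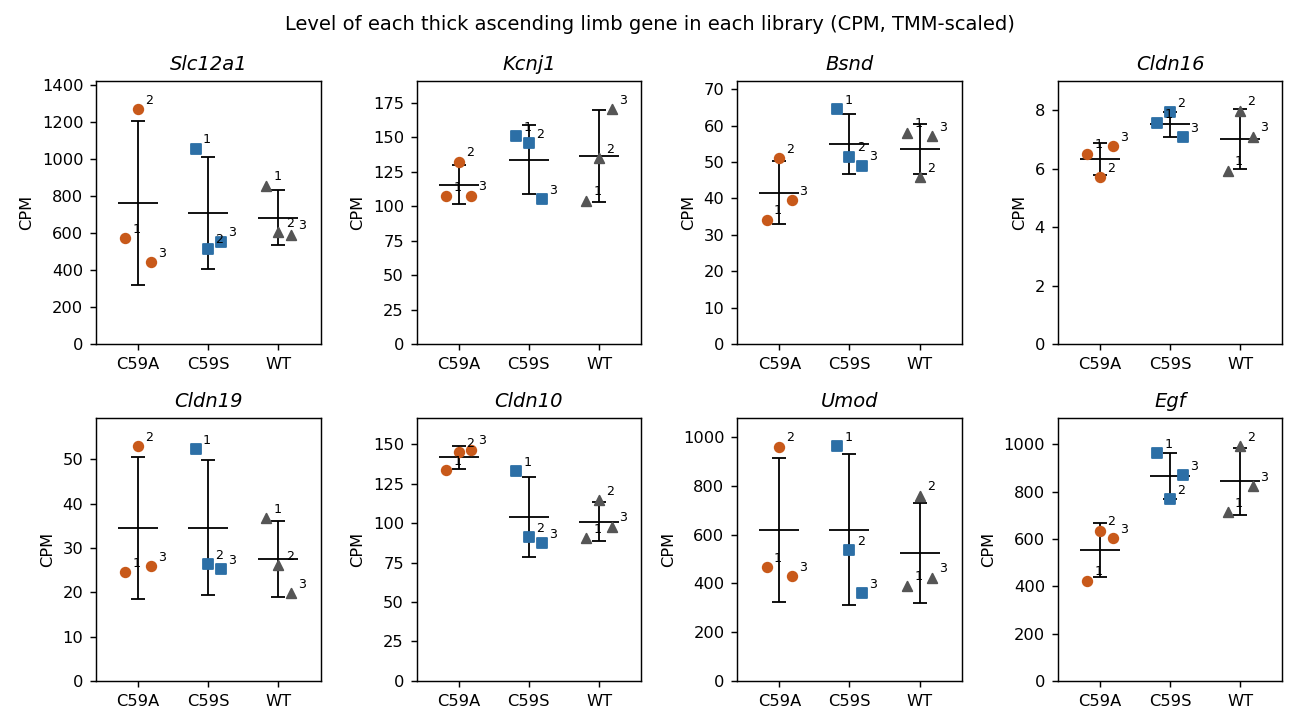
Level of each of the 8 genes in CPM (vertical axes, linear, from 0) in C59A, C59S and WT; points are libraries with their replicate number, horizontal bars the mean and whiskers 1 SD (n = 3). Egf lies lower in all 3 C59A libraries than in any C59S or WT library, and Cldn10 higher than in any WT library, while Slc12a1, Cldn19 and Umod have 1 library far above the others in C59A and in C59S.

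Of the genes for transcellular transport, Slc12a1 (chromosome 2, 125152505 to 125230002, plus strand, GRCm38) differed most between libraries of 1 genotype. It had 573, 1269.8 and 443 CPM in C59A replicates 1, 2 and 3, 1057, 516 and 553 CPM in C59S, and 857, 605 and 591 CPM in WT. Each genotype held 1 high library, C59A replicate 2, C59S replicate 1 and WT replicate 1, and the groups overlapped. The means were 762 ± 445 CPM in C59A, 709 ± 302 CPM in C59S and 684 ± 150 CPM in WT (SD, n = 3 each). Genotype held 0.0803% of the variance of its log2 CPM, against a median of 41.4% over all genes tested.

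The fitted log2 fold change of Slc12a1 was 0.15 ± 0.41 (SE) in C59A against WT, 0.05 ± 0.41 in C59S against WT and 0.10 ± 0.41 in C59A against C59S, with edgeR Benjamini-Hochberg adjusted p of 0.880, 0.964 and 0.912. The 95% interval of the first ran from 0.590-fold to 2.10-fold and that of C59S against WT from 0.549-fold to 1.95-fold. Its sign in C59A against WT was negative without C59A replicate 2, at -0.43.

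Kcnj1 (chromosome 9, 32372493 to 32399197, plus strand) had 107, 132 and 108 CPM in C59A, 151, 146 and 105 CPM in C59S, and 104, 135 and 170.3 CPM in WT. Its highest and lowest libraries were both WT, and the groups overlapped. Its fitted log2 fold change was -0.24 ± 0.19 in C59A against WT and -0.03 ± 0.19 in C59S against WT, with edgeR Benjamini-Hochberg adjusted p of 0.533 and 0.956.

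Bsnd (chromosome 4, 106483456 to 106492283, minus strand) had 34.1, 51.0 and 39.5 CPM in C59A, 64.5, 51.4 and 49.0 CPM in C59S, and 58.0, 45.7 and 57.1 CPM in WT. C59A replicates 1 and 3 lay below every other library, while C59A replicate 2 lay within the ranges of both other genotypes, so the groups overlapped. The log2 fold change was -0.37 ± 0.17 in C59A against WT and -0.40 ± 0.17 in C59A against C59S, and neither passed (edgeR, Benjamini-Hochberg adjusted p of 0.235 and 0.178). In C59S against WT it was 0.04 ± 0.17. Intercalated cell markers were also lowest in C59A: Atp6v1b1, Foxi1, Slc4a1 and Slc26a4 summed to 185 to 239 CPM in C59A, 297 to 314 CPM in C59S and 318 to 439 CPM in WT. In C59A against WT 3 of the 4 passed as lower, where 2.46% of all genes did, and 1 was at a positive value. In C59A against C59S 1 of 4 passed as lower, against 2.56% of all genes, and in C59S against WT 0 of 4 passed. The part of other cells in the Bsnd values was not tested.

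Of the claudins, Cldn16 and Cldn19 encode the pair that makes the limb's junctions permeable to calcium and magnesium, and loss of either causes renal magnesium and calcium wasting in humans. Cldn16 (chromosome 16, 26463135 to 26482765, plus strand) was the steadiest of the 8 and the lowest. It had 6.51, 5.72 and 6.76 CPM in C59A, 7.56, 7.93 and 7.08 CPM in C59S, and 5.93, 7.98 and 7.10 CPM in WT, from 101 to 203 reads a library. All 3 C59A libraries lay below all 3 C59S libraries, and WT overlapped both. On the log2 scale it differed by -0.14 ± 0.18 in C59A against WT, 0.11 ± 0.18 in C59S against WT and -0.25 ± 0.18 in C59A against C59S, with edgeR Benjamini-Hochberg adjusted p of 0.707, 0.789 and 0.446.

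Cldn19 (chromosome 4, 119255414 to 119262438, plus strand) had 24.5, 53.0 and 25.9 CPM in C59A, 52.2, 26.3 and 25.2 CPM in C59S, and 36.7, 26.1 and 19.9 CPM in WT. The high libraries were the same as for Slc12a1, 1 in each genotype, and the groups overlapped. The log2 fold change was 0.32 ± 0.40 in C59A against WT, 0.33 ± 0.40 in C59S against WT and -0.01 ± 0.40 in C59A against C59S, with edgeR Benjamini-Hochberg adjusted p of 0.712, 0.702 and 0.992. An antisense gene, Gm12927, overlaps Cldn19 and had 484 reads over all libraries against 6056 for Cldn19, and since the strand setting of the counting is not given, reads of the pair may be mixed.

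Cldn10 (chromosome 14, 118787908 to 118875489, plus strand) encodes claudin-10, whose b form carries sodium between thick ascending limb cells and whose a form belongs to the proximal tubule. Its first exons start up to 66824 bases apart, and counts per gene do not tell the forms apart. It had 133.5, 145 and 147 CPM in C59A, 133.0, 91.2 and 87.3 CPM in C59S, and 90.5, 114 and 97.7 CPM in WT. Every C59A library lay above every WT library, and above every C59S library by less than 1 CPM at the closest, to C59S replicate 1. The log2 fold change was 0.49 ± 0.17 in C59A against WT (95% interval 0.13 to 0.85) and 0.45 ± 0.17 in C59A against C59S, and neither passed (edgeR, Benjamini-Hochberg adjusted p of 0.115 and 0.135). Without C59S replicate 1, Cldn10 passed in C59A against C59S, at 0.67 with an adjusted p of 0.0297. Proximal tubule markers, given because claudin-10 is made there too, summed over 6 genes to 5115 to 7640 CPM in C59A, 4787 to 6586 CPM in C59S and 8863 to 9563 CPM in WT, most of it Slc34a1. Of the 6, Slc22a6, an organic anion transporter, rose in C59A, by 0.91 ± 0.22 against WT and 1.21 ± 0.22 against C59S on the log2 scale, and Slc5a2, a glucose transporter, fell by 1.44 ± 0.23 against WT (edgeR, Benjamini-Hochberg adjusted p of 0.0312, 0.00979 and 0.00412). Slc22a6 had 723, 506 and 917 CPM in C59A, 253, 378 and 298 CPM in C59S, and 384, 392 and 362 CPM in WT, so that like Cldn10 it lay higher in every C59A library than in any other. The other 4 did not pass in any comparison, nor did any of the 6 in C59S against WT. In C59A against WT, Slc22a6 was the 1 marker of the 6 at a positive value. The other 5 were at negative values, unlike Cldn10, and the median of the 6 was -0.57 on the log2 scale. The part of proximal tubule cells in the Cldn10 values was not tested.

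Of the secreted products, Umod (chromosome 7, 119462711 to 119479282, minus strand) had 467, 960.2 and 430.4 CPM in C59A, 964, 537 and 361 CPM in C59S, and 391, 759 and 424 CPM in WT. C59A replicate 2 and C59S replicate 1 were again the highest, but in WT the high library was replicate 2 and not replicate 1, and the groups overlapped. The log2 fold change was 0.24 ± 0.44 in C59A against WT, 0.24 ± 0.44 in C59S against WT and -0.00 ± 0.44 in C59A against C59S, with edgeR Benjamini-Hochberg adjusted p of 0.816, 0.806 and 0.997. The last interval ran from 0.504-fold to 1.97-fold.

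Egf (chromosome 3, 129677565 to 129755316, minus strand) had 423, 634 and 602 CPM in C59A, 962, 768 and 869 CPM in C59S, and 714, 993 and 822 CPM in WT. Every C59A library lay below every library of the other genotypes, with means of 553 ± 114 CPM in C59A, 866 ± 96.6 CPM in C59S and 843 ± 141 CPM in WT (SD, n = 3 each). Genotype held 69.0% of the variance of its log2 CPM, the largest share among the 8.

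The log2 fold change of Egf was -0.61 ± 0.20 in C59A against WT (0.656-fold, 95% interval 0.486-fold to 0.885-fold) and -0.65 ± 0.20 in C59A against C59S, and neither passed (edgeR, Benjamini-Hochberg adjusted p of 0.0999 and 0.0792). In C59S against WT it was 0.04 ± 0.20 (adjusted p of 0.936). The side of the threshold depended on the procedure: in C59A against WT the adjusted p was 0.0239 with DESeq2, 0.0498 with limma voom, 0.0353 with no filter on low counts and 0.0288 with library totals as the only scaling (-0.60, -0.76, -0.62 and -0.85 on the log2 scale). It was between 0.0870 and 0.280 in the other alternatives run, leaving out single libraries included. For C59A against C59S it was 0.0127 with DESeq2, 0.0253 with limma voom and 0.0203 with no filter. With no filter 3.77% of the 31298 genes with any read were called in C59A against WT and 4.20% in C59A against C59S. With library totals alone it was 6.30% of 17114 genes in C59A against WT.

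Egf lies on the same chromosome as Nfkb1, with 5829339 bases between them, and whether the position bears on its level was not tested. Markers of the distal convoluted tubule, the other segment that makes Egf, were also lowest in C59A: Slc12a3, Pvalb and Calb1 together had 937 to 1453 CPM in C59A, 1506 to 1694 CPM in C59S and 2280 to 3514 CPM in WT. In C59A against WT, Slc12a3, the thiazide-sensitive cotransporter, fell by 1.22 ± 0.24 on the log2 scale and Pvalb by 1.37 ± 0.30 (edgeR, Benjamini-Hochberg adjusted p of 0.0130 and 0.0279), and Calb1 did not pass, at -0.90 ± 0.37. Pvalb, 1 of the 3, passed in C59A against C59S, at -1.37 ± 0.30, and in C59S against WT 0 of 3 did. Lower markers in C59A against WT were not confined to this segment. Called lower were 3 of 4 intercalated cell, 1 of 4 principal cell, 1 of 4 podocyte and 1 of 6 proximal tubule markers, and 2.46% of all genes. Of endothelial and stromal markers 0 of 4 each were called, and of thin limb markers 0 of 3. The part of distal convoluted tubule or other cells in the Egf values was not tested.

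**Figure D2:**
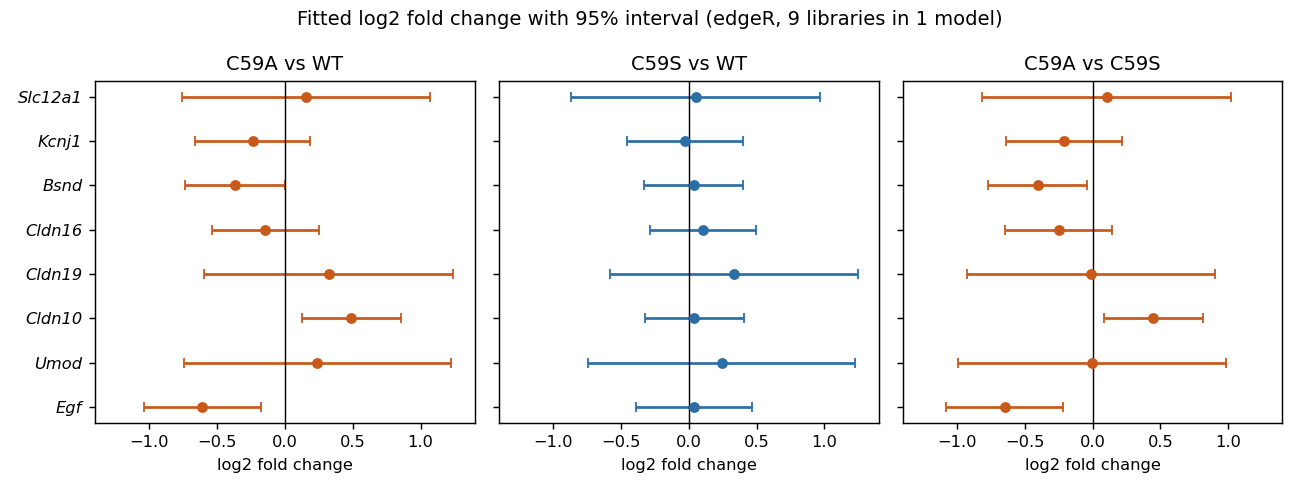
Fitted log2 fold change of each gene (points) with its 95% interval (bars) in C59A against WT, C59S against WT and C59A against C59S; the vertical line marks 0. The intervals of Egf, Cldn10 and Bsnd lie to 1 side of 0 in both comparisons with C59A, before adjustment over all genes, and those of Slc12a1, Cldn19 and Umod are the widest.

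The 8 genes did not vary as a block. Across the 9 libraries the SD of log2 CPM was 0.55 for Umod, 0.51 for Slc12a1 and 0.50 for Cldn19, against 0.26 for Kcnj1 and 0.16 for Cldn16, with a median of 0.28 over all genes tested. Genotype held 3.22% of this variance for Umod and 7.85% for Cldn19, 15.1% for Kcnj1, 40.7% for Cldn16, 48.6% for Bsnd and 61.7% for Cldn10. The most variable genes thus differed mainly between libraries of 1 genotype, and Egf and Cldn10 mainly between genotypes.

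Ratios of reads within a library, which do not depend on scaling, showed which genes kept step with Slc12a1. There were between 17.1 reads of Slc12a1 per read of Cldn19 (C59A replicate 3) and 29.8 (WT replicate 3), a span of 1.74-fold, although Slc12a1 itself spanned 2.86-fold in CPM. Slc12a1 over Cldn16 spanned 3.41-fold, with 222 in C59A replicate 2, 140 in C59S replicate 1 and 145 in WT replicate 1, and between 65.1 and 88.0 in the other libraries. The pair of cation claudins therefore did not keep a fixed ratio: Cldn19 over Cldn16 was 2.80 at the lowest and 9.28 at the highest. Slc12a1 over Bsnd spanned 2.48-fold, over Umod 2.76-fold, over Kcnj1 2.77-fold, over Cldn10 3.13-fold and over Egf 3.29-fold. Between genotypes these ratios are given as values only, since an exact permutation test of 3 against 3 libraries cannot go below a two-sided p of 0.1.

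The 3 libraries high in Slc12a1 and Cldn19 were also the highest of their genotype in Slc14a2, the urea transporter of the thin descending limb and inner medullary collecting duct. Slc14a2 had 9.35, 103 and 0.381 CPM in C59A, 125, 11.4 and 5.93 CPM in C59S, and 53.2, 0.452 and 1.10 CPM in WT. The whole thin limb list, Slc14a2, Aqp1 and Akr1b3, summed to 426 to 666 CPM in C59A, 305 to 637 CPM in C59S and 275 to 363 CPM in WT, most of it Aqp1, and 0 of its 3 genes passed in any comparison. Aqp1 is the water channel of thin descending limb and proximal tubule, and Akr1b3 the aldose reductase. Both were also highest in C59A replicate 2 and C59S replicate 1 within these genotypes, in part by little. Aqp1 had 468, 477 and 390 CPM in C59A and 436, 304 and 226 CPM in C59S. Akr1b3 had 62.0, 86.1 and 35.0 CPM in C59A and 76.2, 28.3 and 73.2 CPM in C59S. In WT they did not follow: Aqp1 had 286, 309.8 and 246 CPM, highest in replicate 2, and Akr1b3 24.1, 18.9 and 27.8 CPM, highest in replicate 3. The part of the tissue taken for each library is not given, and its part in these levels was not tested.

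Without those 3 libraries, an alternative chosen after seeing the data, 2 libraries of each genotype were left, and the SE of Slc12a1 was 0.20 in place of 0.41. Its log2 fold change was then -0.24 ± 0.20 in C59A against WT, -0.16 ± 0.20 in C59S against WT and -0.07 ± 0.20 in C59A against C59S. Umod was at -0.40 ± 0.30 in both knock-ins against WT, and Egf at -0.82 ± 0.23 in C59A against WT. No member was called, and the adjusted p of Egf in C59A against WT was 0.110 (edgeR, Benjamini-Hochberg).

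**Figure D3:**
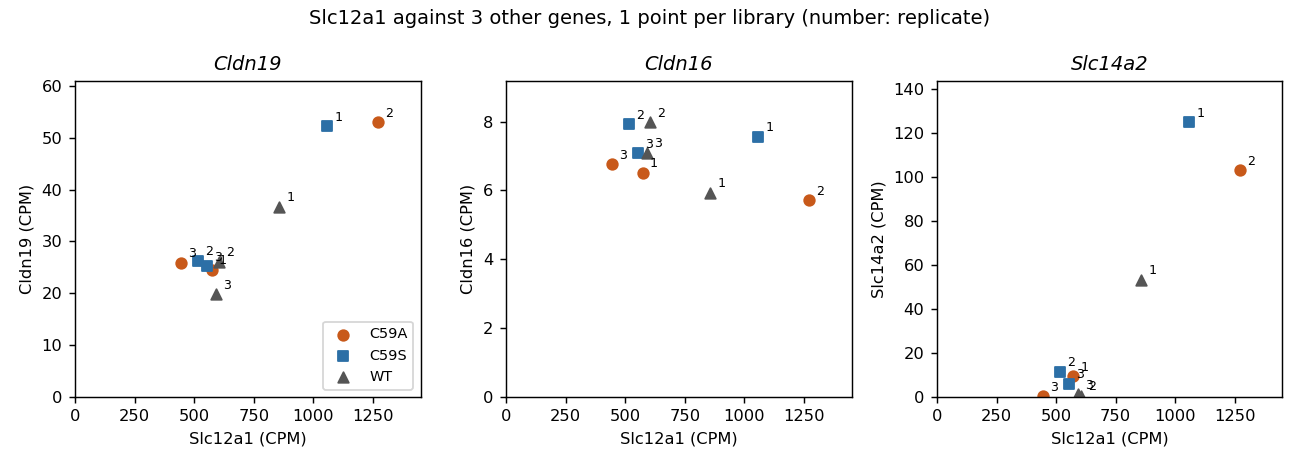
Cldn19, Cldn16 and Slc14a2 (vertical axes, CPM) against Slc12a1 (horizontal axes, CPM), 1 point per library with its replicate number, both axes linear from 0. C59A replicate 2, C59S replicate 1 and WT replicate 1 stand to the right, high in Cldn19 and Slc14a2, and Cldn16 stays between 5.72 and 7.98 CPM in all 9.

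Among 13409 other protein-coding genes with a mean of at least 1 CPM, the 3 most like Slc12a1 over the 9 libraries were Dnm3, BC051142 and E2f2. The measure was the root mean square difference of log2 CPM after centring each gene, and was 0.109 for Dnm3 and 0.185 for E2f2, while a gene at 1 level in all libraries would have 0.481. Dnm3, a dynamin, had 6.15, 12.8 and 4.48 CPM in C59A, 12.0, 6.67 and 5.93 CPM in C59S, and 9.63, 6.98 and 5.95 CPM in WT. Ranked with the members included, Cldn19 came 9th at 0.208, Bsnd 784th and Umod 833rd, and Cldn16 came 7908th of 13416. Most like Umod were Gpx6 at 0.237, Esrrb, Atp8b4, Kcnn2 and Zfp286, against 0.522 for a gene at 1 level, and the closest member was Cldn19, in place 84. All these genes share the 9 libraries with the members, so the ranks describe these libraries.

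Partners and regulators of the limb's transport were taken as a list of 40 genes, of which 39 were tested. Cldn14, a claudin that binds Cldn16, was left out for low counts, with 0 to 6 reads a library. In C59A against WT 3 of 39 passed, or 7.69% against 5.70% of all genes, 1 of them higher and 2 lower, where 3.24% of all genes were called higher and 2.46% lower. In C59A against C59S 4 passed, 2 higher and 2 lower, against 5.91% of all genes, 3.35% higher and 2.56% lower. In C59S against WT 0 of 39 passed under edgeR, against 0% of all genes, and 6 reached an unadjusted p under 0.05, which 18.1% of all genes did. DESeq2 called 1 of 39, against 2.03% of all genes, and limma voom 0. With the replicate number as a block on C59S and WT alone, 1 of 39 was called, against 3.82% of all genes. This fit was added after seeing that same-numbered libraries of these groups deviate together, and the labels state no pairing. The median log2 fold change of the 39 was -0.01 in C59A against WT, -0.01 in C59S against WT and -0.01 in C59A against C59S.

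The gene called in C59S by DESeq2 and with the block was Adcy6, an adenylyl cyclase that makes cyclic AMP, named after its values were seen. It had 193, 221 and 159.9 CPM in C59A, 223, 192 and 166 CPM in C59S, and 310.0, 294 and 251 CPM in WT. Every knock-in library lay below every WT library. In C59S against WT it was at -0.56 ± 0.16 on the log2 scale in the fit of all 9 libraries (edgeR, Benjamini-Hochberg adjusted p of 0.151), and at -0.57 ± 0.10 with the block (adjusted p of 0.0387). In C59A against WT it was at -0.58 ± 0.16 (adjusted p of 0.0639). There it passed with DESeq2 (0.0112), no filter (0.0234), the replicate block on all 9 libraries (0.0272), library totals alone (0.0396) and limma voom (0.0495). It did not pass there in the other alternatives run.

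Kcnj10 and Kcnj16, which encode basolateral potassium channels, and the 3 sodium pump genes did not pass in any comparison.

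Of the kinases that set NKCC2 activity, Wnk1 had 316, 323 and 315 CPM in C59A, 394, 399 and 367 CPM in C59S, and 481, 459.8 and 621 CPM in WT. It fell in C59A against WT by 0.71 ± 0.15 on the log2 scale (edgeR, Benjamini-Hochberg adjusted p = 0.0174), and the genotypes did not overlap. Wnk4 was at -0.37 ± 0.21 and -0.46 ± 0.21 in C59A and C59S against WT, and Stk39, the SPAK kinase, at 0.15 ± 0.23 and 0.26 ± 0.23, none of which passed. Slc12a3, the distal cotransporter that the same kinases set, is among the genes that fell in C59A, and whether Wnk1 moved in the limb or in the distal tubule cannot be told apart in whole kidney.

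Maged2, an X-linked gene needed for NKCC2 at the cell surface in human fetal kidney, had 11.1, 13.8 and 13.3 CPM in C59A, 23.4, 29.7 and 31.1 CPM in C59S, and 19.1, 20.1 and 28.1 CPM in WT. Every C59A library lay below every other library. It fell in C59A by 0.82 ± 0.18 on the log2 scale against WT and by 1.14 ± 0.18 against C59S (edgeR, Benjamini-Hochberg adjusted p of 0.0198 and 0.00387). Against C59S this was the 1 partner call that held in every alternative run.

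Irx1, a transcription factor of the developing limb, had 54.2, 59.9 and 50.5 CPM in C59A, 32.3, 12.2 and 13.2 CPM in C59S, and 17.5, 21.5 and 9.71 CPM in WT. It rose in C59A against WT by 1.76 ± 0.41 on the log2 scale (edgeR, Benjamini-Hochberg adjusted p = 0.0448), and did not pass with library totals alone, with no filter, or without any single library of C59A or WT, where the adjusted p was between 0.0753 and 0.138. Hpn, the protease that releases uromodulin, had 616, 578 and 675 CPM in C59A, 433, 411 and 368 CPM in C59S, and 499, 519 and 402 CPM in WT. It rose in C59A against C59S by 0.62 ± 0.15 (adjusted p = 0.0379) and did not pass in C59A against WT, at 0.40 ± 0.15 (adjusted p of 0.166).

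Also in C59A against C59S, Egfr, the receptor of the Egf product, rose by 0.56 ± 0.14 and Tjp1, the junction scaffold ZO-1, fell by 0.61 ± 0.16 on the log2 scale (edgeR, Benjamini-Hochberg adjusted p of 0.0426 and 0.0487). With the replicate number as a block these were at 0.0708 and 0.0781. Tjp1 had 42.4, 49.7 and 38.1 CPM in C59A, 64.7, 62.3 and 71.9 CPM in C59S, and 49.1, 37.7 and 58.7 CPM in WT, and every C59S library lay above every other. Endothelial markers were also highest in C59S: Pecam1, Cdh5, Emcn and Kdr summed to 214 to 242 CPM in C59A, 337 to 517 CPM in C59S and 134 to 306 CPM in WT. In C59A against C59S all 4 were at negative values, with a median of -0.89 on the log2 scale, and 2 of 4, Pecam1 and Cdh5, fell, while in C59S against WT all 4 were at positive values and 0 of 4 passed. Adipocyte markers differed between libraries too: Adipoq, Cfd and Plin1 summed to 0.396 to 92.8 CPM in C59A, 2.53 to 498 CPM in C59S and 0.251 to 0.714 CPM in WT. Of these, 0 of 3 passed in any comparison. Cyp11b1, of the adrenal cortex, had reads in C59S replicate 2 alone, at 10.9 CPM. The part of endothelial, adipocyte or adrenal cells in the Tjp1 values was not tested. Casr, the calcium-sensing receptor, did not pass, at -0.39 ± 0.18 in C59A and -0.16 ± 0.18 in C59S against WT. The 3 calls in C59A against WT all went without C59A replicate 1, without C59A replicate 3, and with the mitochondrial share of each library as a covariate. The share of all genes called fell there too, from 5.70% to 3.03%, 2.85% and 2.54% in that order. The fold changes stayed near their size: with that covariate Wnk1 was at -0.66 ± 0.18, Maged2 at -0.87 ± 0.21 and Irx1 at 1.82 ± 0.48, each with a larger SE. The mitochondrial share was 16.4% to 19.6% in WT and 20.8% to 28.8% in C59A, without overlap. This covariate is therefore partly confounded with the comparison against WT. Without WT replicate 3 Wnk1 was the 1 left, where 4.82% of all genes were called. In C59A against C59S 1 of 39 was called without C59A replicate 1 or 3, without C59S replicate 2 or 3, and with that covariate, and 2 without C59S replicate 1 or WT replicate 1.

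**Figure D4:**
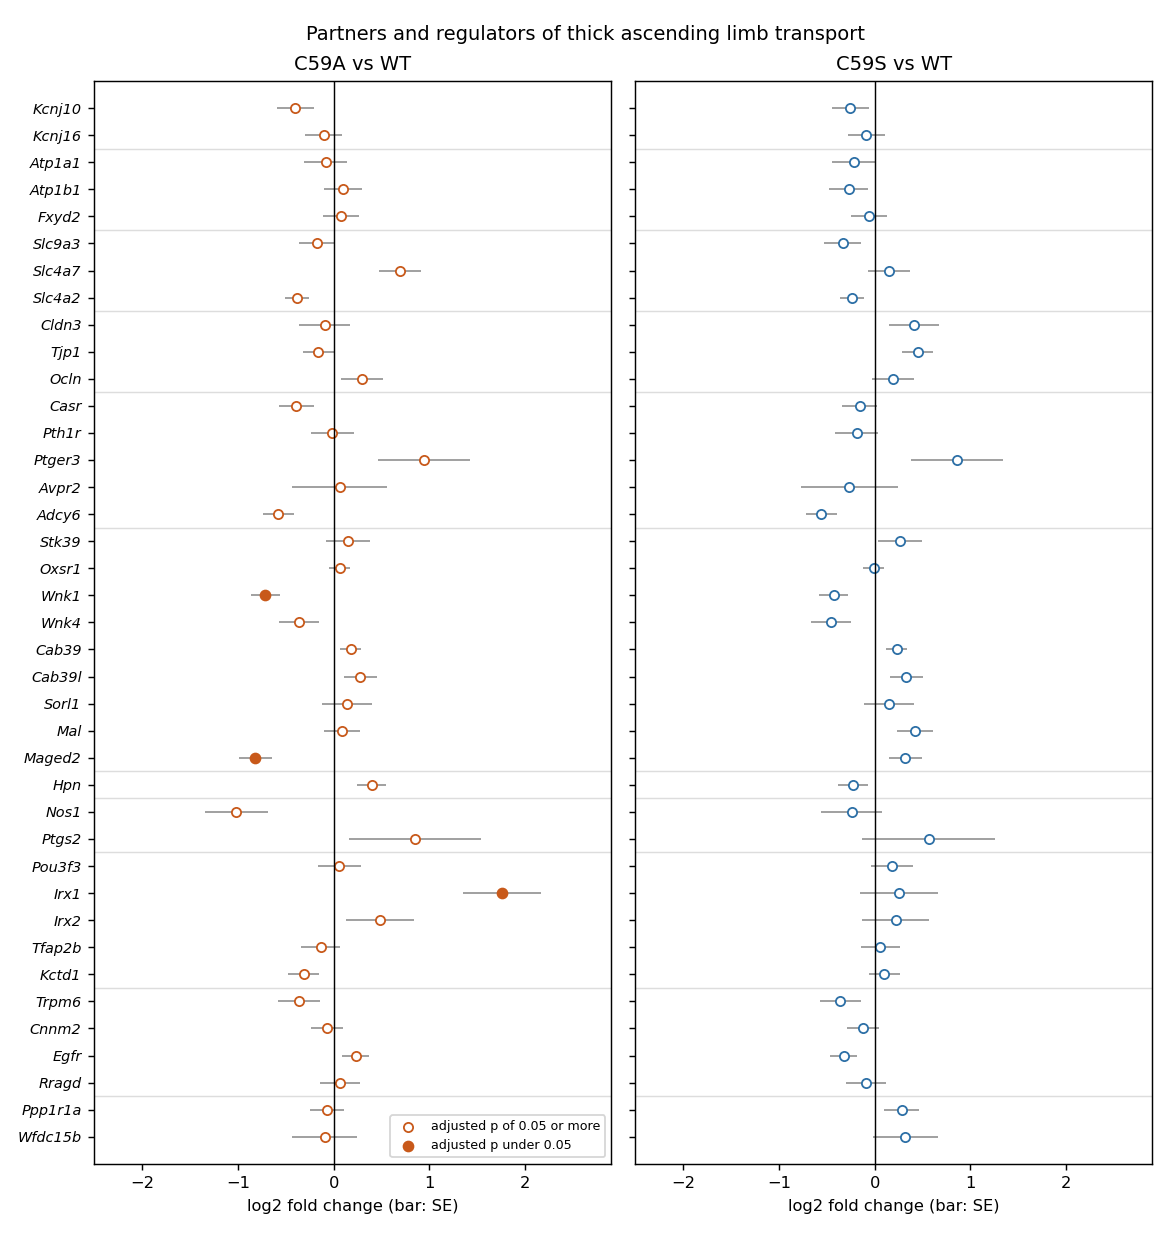
Log2 fold change (points) and SE (bars) of the 39 tested partners and regulators in C59A against WT and C59S against WT, grouped by role between the pale lines; filled points have an adjusted p under 0.05. In C59A, Wnk1 and Maged2 lie to the left and Irx1 to the right as filled points, and in C59S no point is filled in this fit of all 9 libraries, which has no replicate block.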

How the data were processed

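Whole-kidney RNA of 9 libraries, 3 each of C59A, C59S and WT, was used, grouped by the genotype in the labels; all 9 sample columns entered. Per the labels' protocols, RNA was isolated using TRIzol and the libraries come from a NEBNext Ultra RNA kit. Per the submitters' processing notes, reads were handled on GRCm38 with tools listed as DESeq2 1.20.0, featureCounts 1.5.0-p3, fastp, CASAVA 1.8 and HISAT2 2.0.5; parameters, strand setting, annotation release and the treatment of multiply mapped reads are not given in the sources used here. The counts per gene were deposited by the authors as raw whole numbers. The FPKM values deposited by the authors equal the counts over gene length and over 1 constant per library, 0.995 to 1.02 times the TMM-scaled total, and were used only for levels per length and as an alternative.

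Counts were filtered with filterByExpr, which kept 17114 genes, scaled with TMM and fitted together over the 9 libraries (edgeR 4.0.16 under R 4.3.3, with robust glmQLFit and estimateDisp). Pairs of genotypes were compared with the quasi-likelihood test, Benjamini-Hochberg adjusted over all genes tested and called under 0.05. CPM are counts per 1000000 of the TMM-scaled total. SE and 95% intervals come from the test's F and degrees of freedom. The procedure was tested on simulated data. Alternatives used DESeq2 1.42.0, limma 3.58.1, other scalings, filters and units, left-out libraries, and a mitochondrial covariate. No pair among the 9 libraries was a duplicate (chi-square per degree of freedom of at least 22.2).

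Members and gene lists were chosen with earlier results of these data known. Partners named are those called, at most 6 per comparison, and Casr, Stk39, Wnk4 and Hpn in any case; some genes of the list and of the ranking by likeness are not reported here. As to pairing, the deviations of same-numbered libraries, by the replicate number in the titles, correlated at 0.318, 0.195 and 0.256 between C59S and WT, each above 0.1, so a fit with the number as a block was also run on these groups. Between C59A and the others they correlated at -0.288 to 0.0499, and the numbers do not pair C59A. Differently numbered libraries reached 0.294 (C59A replicate 2 with C59S replicate 1), and 0.00850 at most between C59S and WT. The labels state no pairing, and only WT replicate 1 has the same number in its deposited column as in its title. By column number the 1 pair shared by C59S and WT is WT replicate 3 with C59S replicate 2, which correlated at 0.00850. The block on C59S and WT alone was added after seeing the data, so its calls rest on a pairing read from these data.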

Additional observations from a re-analysis of the deposited data

How the results depend on the processing

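In C59A against WT, 1 member (Egf) was called with library totals alone, no filter, DESeq2 or limma voom with quality weights, and in the test over all 3 genotypes 1 with the same 4. In C59A against C59S 1 was called with no filter, DESeq2 or limma voom, and leaving out single libraries gave 0 to 1 there and 0 to 1 over all 3 genotypes. Partners called in C59A against WT were 5 with DESeq2 (4.96% of all genes), 1 in the unfiltered fit on log2(FPKM + 1) (1.52%), 0 with the mitochondrial share as covariate (2.54%) and 0 to 3 without single libraries; in C59S against WT 1 with DESeq2 (2.03%) and 1 with the replicate block on C59S and WT alone (3.82%), both Adcy6; in C59A against C59S 1 with library totals (3.91%), with unfiltered FPKM (0.994%) or with the mitochondrial covariate (3.02%), 2 without the 3 libraries highest in Slc14a2 (3.59%), and 1 to 5 without single libraries. The replicate block over all 9 libraries called 0 members. Among named partners it lost Egfr and Tjp1 as given above. It gained Adcy6 in C59A against WT and Irx1 in C59A against C59S (edgeR, Benjamini-Hochberg adjusted p of 0.0272 and 0.0460). Run on C59S and WT alone, the block called 638 genes, none of them a member.

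Of the fold changes that passed no test, several changed sign. With library totals alone the median over all genes was -0.26 in C59A and -0.19 in C59S against WT; relative to this shift, Slc12a1 at -0.0843 and Stk39 at -0.0916 in C59A against WT lay above it, as in C59S against WT did Slc12a1 at -0.13, Bsnd at -0.15, Cldn16 at -0.0807, Cldn10 at -0.13 and Egf at -0.16. With limma voom, Slc12a1 was at -0.0700 in C59A and -0.11 in C59S against WT, Cldn10 at -0.0467 in C59S against WT and Umod at 0.0397 in C59A against C59S. With the mitochondrial covariate, Slc12a1 was at -0.0867, Kcnj1 at 0.19 and Egf at -0.0891 in C59S against WT, and Cldn19 at 0.00561 in C59A against C59S. Slc12a1 was at -0.0202 in C59S against WT with the replicate block on these groups alone, and Cldn19 at 0.0314 in C59A against C59S with the block on all. In C59A against C59S, Cldn19 was at 0.000205 with DESeq2, and Umod at 0.00245 with RLE factors, 0.00284 with DESeq2, 0.0167 in both fits on log2(FPKM + 1) and 0.0169 on log2(FPKM + 0.1). Without the 3 libraries highest in Slc14a2, the values in C59A against WT were -0.24 for Slc12a1, -0.40 for Umod and -0.20 for Stk39; in C59S against WT -0.16 for Slc12a1, -0.0349 for Bsnd, -0.00421 for Cldn16, -0.25 for Cldn10, -0.40 for Umod, and -0.15 for Egf; and -0.0733 for Slc12a1 in C59A against C59S. The cause was not tested.

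Without single libraries, log2 fold changes ran, in C59A against WT, from -0.43 to 0.43 for Slc12a1, -0.13 to 0.58 for Cldn19, -0.22 to 0.60 for Umod and -0.15 to 0.28 for Stk39. In C59S against WT they ran from -0.35 to 0.24 for Slc12a1, -0.19 to 0.17 for Kcnj1, -0.0934 to 0.11 for Bsnd, -0.00181 to 0.21 for Cldn16, -0.0954 to 0.59 for Cldn19, -0.17 to 0.16 for Cldn10, -0.22 to 0.61 for Umod, -0.0670 to 0.17 for Egf and -0.26 to 0.0130 for Casr. In C59A against C59S they ran from -0.48 to 0.51 for Slc12a1, -0.46 to 0.42 for Cldn19 and -0.47 to 0.46 for Umod. Over all genes, counts called in C59A against WT were 1552 with DESeq2, 475 with unfiltered FPKM, 434 with the mitochondrial covariate and 462 without the 3 libraries; in C59S against WT 20 with library totals, 308 with no filter, 636 with DESeq2, 2 with unfiltered FPKM and 26 without the 3 libraries; in C59A against C59S 670 with library totals, 1731 with DESeq2, 1768 with limma voom, 663 and 670 with filtered and 311 with unfiltered FPKM, 517 with the covariate and 615 without the 3 libraries. Without single libraries these counts ran from 502 (without C59A replicate 3) to 934, from 0 to 737 (without WT replicate 3) and from 318 (without C59S replicate 3) to 1307. No alternative called a member in C59S against WT. The fit on only the 2 groups compared has no value for the test over all 3 genotypes. Shares for DESeq2 and for the fits with no filter are over the 31298 genes with any read, and so are not alike to those over filtered genes. Depth limits Cldn16, with 101 to 203 reads a library.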
